A study of Dorcoceras hygrometricum with 3 samples.

Results

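The genes described here are those of photosynthesis and the thylakoid in leaves of Boea hygrometrica (also named Dorcoceras hygrometricum), a resurrection plant that recovers after losing nearly all its leaf water. Leaf DNA of potted plants was sequenced after bisulfite treatment at 70% relative water content (RWC), at 10% RWC and in the hydrated state. The labels state no plant age, no pooling of plants and no time without water. Each condition is 1 library, so each difference compares single libraries, without replicates and without a test. A gene was a member if the first KEGG description or a Gene Ontology (GO) term in the deposited tables held photosystem, light-harvesting, photosynth, chlorophyll or thylakoid. Of 5575 listed genes, 77 were members, 12 of them by description and 65 by a GO term alone. The 70% RWC table held 55 of them (11 by description, 44 by GO term alone) among 3177 genes. The 10% RWC table held 47 (7 and 40) among 3660 genes, and 25 members stood in both tables.

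Photosystem II splits water and photosystem I reduces ferredoxin. The chlorophyll a/b binding proteins of the light-harvesting complexes feed both with excitation energy, and the cytochrome b6-f complex links them within the thylakoid membrane. In a drying leaf, absorbed light that cannot drive carbon fixation can damage photosystem II, and carotenoids of the xanthophyll cycle help to release it as heat. B. hygrometrica belongs to the resurrection plants that keep their chlorophyll while dry. Plant DNA is methylated at cytosines in CG, CHG and CHH contexts. Methylation in promoters often goes with low transcription, while CG methylation inside genes is common in genes that are transcribed. No transcript level was measured here.

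The tables hold 1 region per gene, placed by the authors in the gene body, upstream or downstream, with a mean methylation level per library as a fraction from 0 to 1. They list only regions that had already been selected for a difference. The higher of the 2 levels was never below 0.1, and no region was shorter than 201 bp. A photosynthesis gene that is missing from a table may be unchanged or may not have been measured, so the counts below are shares of listed genes and not of all photosynthesis genes. Depth, sequence context, strand, exons and introns are not in the tables, so a single level carries no interval here. Positions are the tables' own scaffold coordinates, with the build not given in the sources used here. Whether a scaffold is nuclear or from the chloroplast is not in the tables.

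At 70% RWC, members mostly carried regions of higher level than in the hydrated leaf. The level was higher for 44 of 55 members (80.0%, exact 95% binomial interval 67.0 to 89.6) and lower for 11, against 70.6% higher and 29.4% lower among all listed genes. The median difference, 70% RWC minus hydrated, was 0.17 for members and 0.17 for all listed genes. At 10% RWC the level was higher for 33 of 47 members (70.2%, 55.1 to 82.7) and lower for 14, against 55.8% higher and 44.2% lower among all listed genes. The median difference, 10% RWC minus hydrated, was 0.13 for members and 0.10 for all listed genes. Both intervals are wide and cover counting alone, and the background share lies inside the first and just inside the second. The hydrated library is shared by both comparisons, which are therefore not independent. The members are grouped below by roles that were assigned with the values in view, so the counts per role describe these genes and nothing is read from them.

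**Figure D1:**
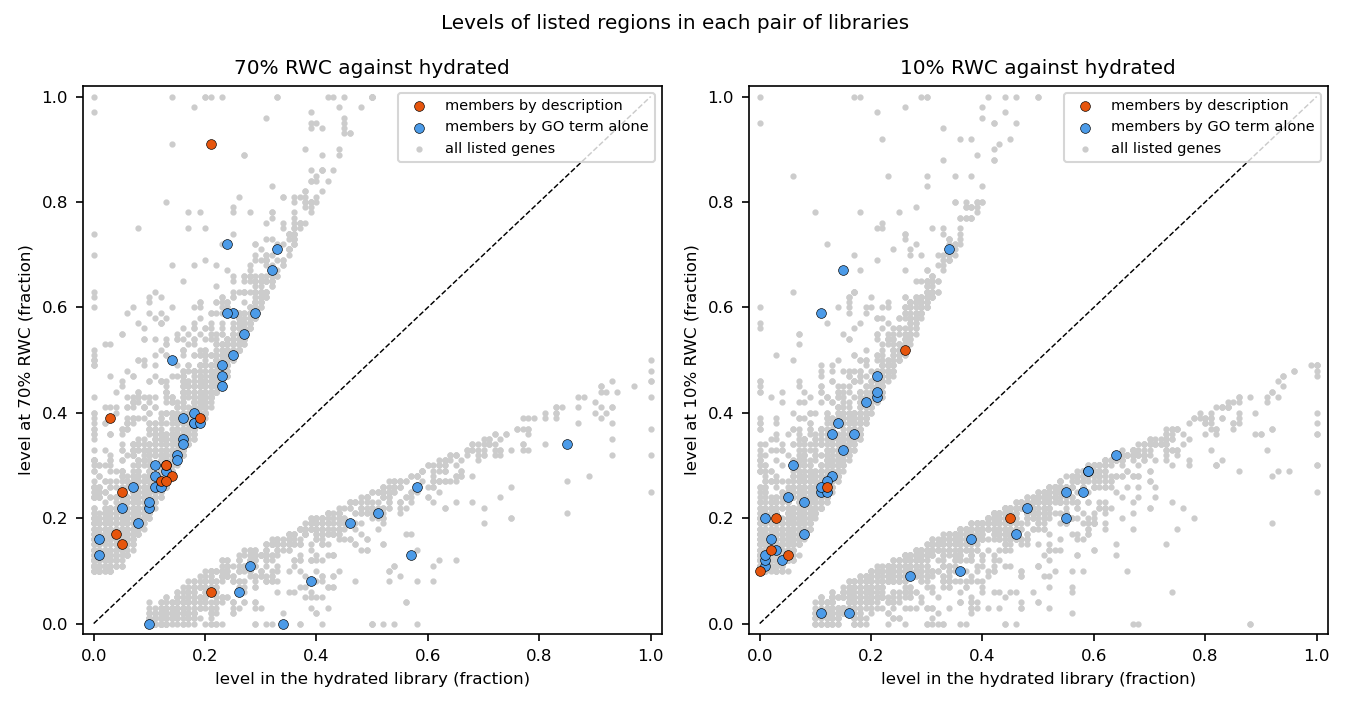
Methylation level (fraction) after water loss, at 70% RWC (left) and 10% RWC (right), on the vertical axis against the level in the hydrated library on the horizontal axis, 1 point per listed gene. Orange points are members by description, blue points members by GO term alone, grey points all listed genes, and points above the dashed line have the higher level after water loss. The empty band along the line is the authors' selection, and 44 of 55 members (70% RWC) and 33 of 47 (10% RWC) lie above it.

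Of the antenna genes, 5 members were listed at 70% RWC, 3 of photosystem I and 2 of photosystem II, and all 5 had higher levels there, against 70.6% of all listed genes. At 10% RWC 3 of 3 were higher, against 55.8%. Counts this small are not far from those shares. The widest gap was in the body of Bhs6817_001V1.1, light-harvesting complex I chlorophyll a/b binding protein 2 (scaffold6817, 9554 to 9992). The level there was 0.91 at 70% RWC and 0.21 in the hydrated leaf, the widest difference of any member in that table. The 10% RWC table lists this gene for another stretch, 6450 bp further along the same 10175 bp gene model, with 0.13 at 10% RWC and 0.05 in the hydrated leaf. The level of the first stretch at 10% RWC is therefore not known. In the other antenna genes the gaps were between 0.10 and 0.15. Another gene with the same description, Bhs539_003V1.1, had 0.17 at 70% RWC and 0.04 in the hydrated leaf downstream (scaffold539, 68541 to 69095). A 215 bp stretch inside that region had 0.10 at 10% RWC and was listed at 0 in the hydrated leaf. Downstream of Bhs29_032V1.1, light-harvesting complex I protein 4 (scaffold29, 208383 to 208679), the level was 0.28 at 70% RWC and 0.14 in the hydrated leaf. The photosystem II antenna genes had nearly the same pair of levels. Upstream of Bhs1817_007V1.1, light-harvesting complex II protein 2 (scaffold1817, 106439 to 106701), the level was 0.27 at 70% RWC and 0.12 in the hydrated leaf. Bhs4601_002V1.1, light-harvesting complex II protein 7, had 0.27 at 70% RWC and 0.13 in the hydrated leaf downstream (scaffold4601, 29471 to 29943). The flank stretches of these antenna genes are each also listed for a neighbouring gene, among them a MADS-box factor gene next to Bhs29_032V1.1 and a nuclear pore gene next to Bhs1817_007V1.1. In the body of Bhs4601_002V1.1, 918 bp from its flank region, the level was 0.26 at 10% RWC and 0.12 in the hydrated leaf.

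Among the photosystem subunits, 4 of 4 listed genes were higher at 70% RWC and 3 of 4 at 10% RWC, against 70.6% and 55.8% of all listed genes. PsbY, a small subunit of photosystem II, is the member whose region had identical boundaries in both tables, so its levels refer to 1 stretch. Downstream of its gene Bhs8788_004V1.1 (scaffold8788, 16496 to 17120) the hydrated leaf had a level of 0.03, the 70% RWC leaf 0.39 and the 10% RWC leaf 0.20. Here the desiccated leaf lay between the hydrated leaf and the moderately dry leaf. The same stretch lies in the body of the neighbouring gene Bhs8788_003V1.1, a phosphopantetheinyl transferase, so it cannot be tied to PsbY alone. Bhs4075_001V1.1, described as the P700 chlorophyll a apoprotein A1 of photosystem I, had 0.39 at 70% RWC and 0.19 in the hydrated leaf upstream (scaffold4075, 41141 to 41355). A 408 bp region around that stretch had 0.52 at 10% RWC and 0.26 in the hydrated leaf. This apoprotein carries the reaction centre chlorophyll and is encoded by the chloroplast genome in plants, and the gene model here is only 345 bp long.

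The oxygen-evolving enhancer proteins shield the manganese cluster that splits water, and their genes did not all go one way. Bhs8301_003V1.1, enhancer protein 3, had 0.15 at 70% RWC and 0.05 in the hydrated leaf, in its body (scaffold8301, 21759 to 22212). The 2 genes described as enhancer protein 2 had opposite directions at 10% RWC. In the body of Bhs1317_004V1.1 (scaffold1317, 95549 to 95846) the level was 0.20 at 10% RWC and 0.45 in the hydrated leaf, the one loss among members described as antenna or photosystem proteins. That stretch is also listed as downstream of a phosphoglycerate mutase gene, Bhs1317_003V1.1. In the body of Bhs2182_010V1.1 (scaffold2182, 83322 to 83933) it was 0.14 at 10% RWC and 0.02 in the hydrated leaf. That gene had 0.30 at 70% RWC and 0.13 in the hydrated leaf, over a region that contains the 10% RWC one and starts at 83028. Their annotations are not equally firm. The value in the E-value position of the KEGG entry is 3e-109 for Bhs1317_004V1.1 and 2e-14 for Bhs2182_010V1.1.

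**Figure D2:**
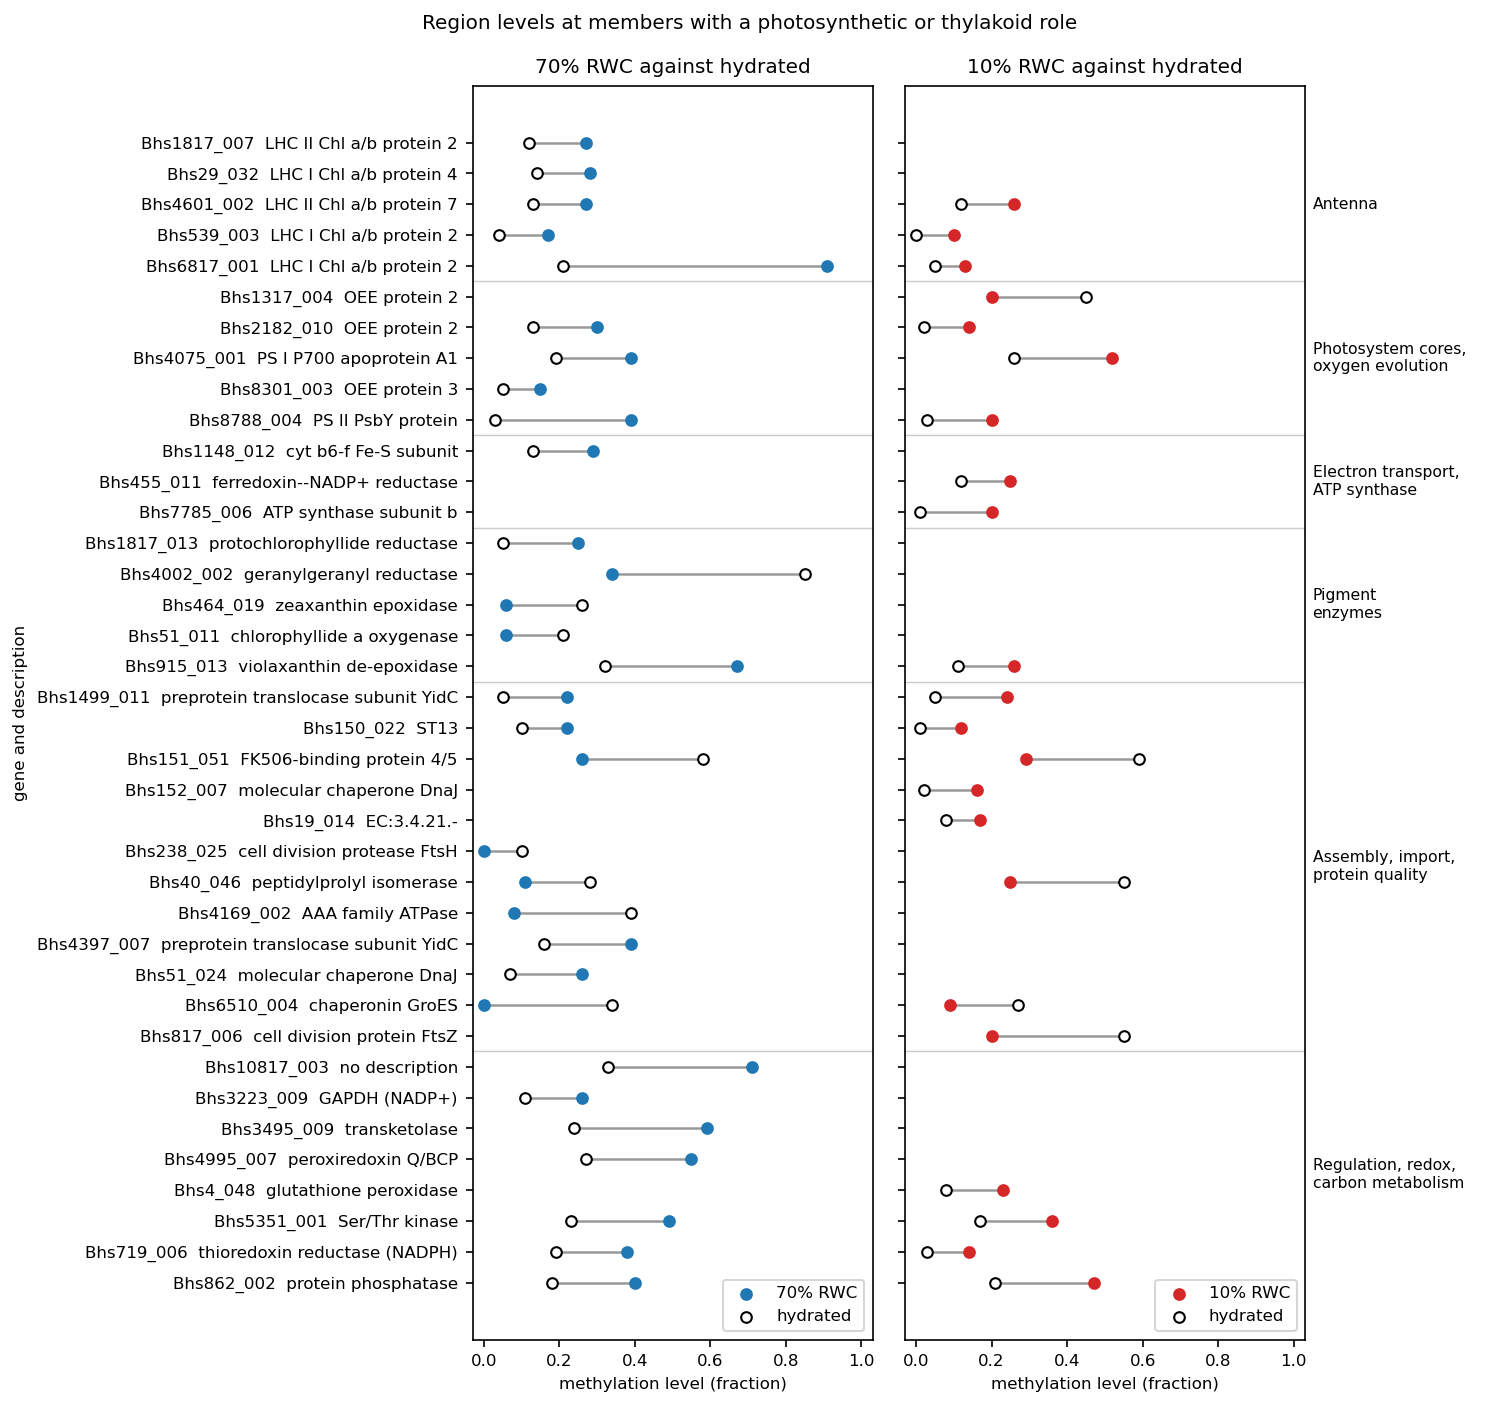
Methylation level (fraction, horizontal axis) of the region listed for each of 38 members with an assigned photosynthetic or thylakoid role, 1 row per gene, at 70% RWC (left, blue) and 10% RWC (right, red), with the hydrated library as open circles; rows without points are genes absent from that table. Filled circles lie right of open ones in every antenna row, and left of them for 3 of 5 pigment enzymes at 70% RWC.

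The 3 members grouped as electron carriers or ATP synthase were higher where listed, 1 of 1 at 70% RWC and 2 of 2 at 10% RWC. The shares over all listed genes were 70.6% and 55.8%. These members joined by GO term and are singled out here for their role, after their values had been seen. Downstream of Bhs1148_012V1.1, the iron-sulfur subunit of cytochrome b6-f, the level was 0.29 at 70% RWC and 0.13 in the hydrated leaf. In the body of Bhs455_011V1.1, the ferredoxin-NADP+ reductase that makes NADPH, it was 0.25 at 10% RWC and 0.12 in the hydrated leaf. Downstream of Bhs7785_006V1.1, subunit b of the ATP synthase stalk, it was 0.20 at 10% RWC and 0.01 in the hydrated leaf. Another gene described as an ATP synthase subunit, subunit d (Bhs120_044V1.1), had 0.16 at 10% RWC and 0.38 in the hydrated leaf in its body. Its GO terms name both the mitochondrial ATP synthase and the chloroplast thylakoid, and it is counted below with the described members given no role above. A ferredoxin-NADP+ reductase gene without a matching keyword, Bhs18_093V1.1, had 0.22 at 70% RWC and 0.63 in the hydrated leaf in its body. Genes given the same enzyme name thus differed in direction, in different tables.

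Of the pigment enzymes, 2 of 5 had a higher level at 70% RWC and 3 a lower one, against 70.6% higher among all listed genes. Chlorophyllide a oxygenase, which makes the chlorophyll b of the antennae, had the only lower level among gene bodies of members at 70% RWC. In its gene Bhs51_011V1.1 (scaffold51, 70730 to 71021) the level was 0.06 at 70% RWC and 0.21 in the hydrated leaf. Geranylgeranyl reductase, which makes the phytyl tail of chlorophyll and of tocopherol, had the widest loss of any member. Upstream of its gene Bhs4002_002V1.1 (scaffold4002, 15708 to 15985) the level was 0.34 at 70% RWC and 0.85 in the hydrated leaf. The gene Bhs1817_013V1.1, described as the protochlorophyllide reductase that needs light to make chlorophyllide, had 0.25 at 70% RWC and 0.05 in the hydrated leaf (scaffold1817, 319933 to 320173, of which 151 of 241 bp lie inside the gene). Its annotation is the weakest of the 12 made by description, with 6e-06 in the E-value position.

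Enzymes of both directions of the xanthophyll cycle were listed. Violaxanthin de-epoxidase forms the heat-releasing zeaxanthin in strong light. In the body of its gene Bhs915_013V1.1 (scaffold915, 91955 to 92186) the level was 0.67 at 70% RWC and 0.32 in the hydrated leaf. Zeaxanthin epoxidase converts zeaxanthin back. Upstream of its gene Bhs464_019V1.1 (scaffold464, 416124 to 416421) the level was 0.06 at 70% RWC and 0.26 in the hydrated leaf. In the 10% RWC table Bhs915_013V1.1 was listed for a region downstream, 2531 bp from the first, with 0.26 at 10% RWC and 0.11 in the hydrated leaf. That stretch is also listed for the neighbouring gene Bhs915_012V1.1. Genes described as zeaxanthin epoxidase did not all go one way. Outside the members, Bhs7_038V1.1 had 0.02 at 70% RWC and 0.11 in the hydrated leaf in its body, and in another stretch of the body 0.18 at 10% RWC and 0.08 in the hydrated leaf. Downstream of Bhs4_026V1.1, also given that name, the level was 0.12 at 10% RWC and 0.03 in the hydrated leaf. The epoxidase genes, Bhs464_019V1.1 included, were chosen for their role after their values had been seen.

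Genes of thylakoid assembly, protein import and protein quality were split, with 4 of 9 higher at 70% RWC and 4 of 8 higher at 10% RWC, against 70.6% and 55.8% of all listed genes. Losses lay in the flanks, but so did most listed regions of this group, and at 70% RWC most of its gains. The chaperonin GroES gene Bhs6510_004V1.1 had a 241 bp stretch upstream listed at 0 at 70% RWC, against 0.34 in the hydrated leaf. A 512 bp region around it had 0.09 at 10% RWC and 0.27 in the hydrated leaf. Of the prolyl isomerases, which help proteins to fold, Bhs151_051V1.1 had 0.26 at 70% RWC and 0.58 in the hydrated leaf upstream. A partly overlapping region of that gene had 0.29 at 10% RWC and 0.59 in the hydrated leaf. Downstream of Bhs40_046V1.1 the level was 0.11 at 70% RWC and 0.28 in the hydrated leaf. In a separate region 146 bp away it was 0.25 at 10% RWC and 0.55 in the hydrated leaf. Upstream of Bhs817_006V1.1, FtsZ, a protein of the ring that divides chloroplasts, the level was 0.20 at 10% RWC and 0.55 in the hydrated leaf, the widest loss of a member in that table. Both members described as the membrane insertase YidC had higher levels where listed; the plant protein of this family inserts light-harvesting proteins into the thylakoid. The body of Bhs1499_011V1.1 had 0.05 in the hydrated leaf in both tables, with 0.22 at 70% RWC and 0.24 at 10% RWC. Downstream of Bhs4397_007V1.1 the level was 0.39 at 70% RWC and 0.16 in the hydrated leaf. Upstream of Bhs150_022V1.1, described as suppressor of tumorigenicity protein 13 and given the GO term protein import, it was 0.22 at 70% RWC and 0.10 in the hydrated leaf. Its 10% RWC region had 0.12 at 10% RWC and 0.01 in the hydrated leaf. FtsH, the thylakoid protease that removes damaged photosystem II protein, was picked out after its values were seen. A stretch downstream of its gene Bhs238_025V1.1 was listed at 0 at 70% RWC and at 0.10 in the hydrated leaf. Another protease gene, Bhs19_014V1.1, had 0.17 at 10% RWC and 0.08 in the hydrated leaf in its body. Both members described as the chaperone DnaJ were higher where listed. Bhs51_024V1.1 had 0.26 at 70% RWC and 0.07 hydrated downstream, and Bhs152_007V1.1 0.16 at 10% RWC and 0.02 hydrated in its body. Upstream of the AAA family ATPase gene Bhs4169_002V1.1 it was 0.08 at 70% RWC and 0.39 hydrated.

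Of the members grouped as regulators, redox enzymes or carbon enzymes, 7 of 7 were higher at 70% RWC and 4 of 4 at 10% RWC, against 70.6% and 55.8% of all listed genes. Listed Calvin cycle genes outside the members include a lower one, Bhs109_073V1.1, described with the other lists. The kinase and phosphatase genes with the GO term regulation of photosynthesis were among them. The serine/threonine protein kinase gene Bhs5351_001V1.1 had 0.49 at 70% RWC and 0.23 in the hydrated leaf. In another stretch of its body it had 0.36 at 10% RWC and 0.17 in the hydrated leaf. The protein phosphatase gene Bhs862_002V1.1 had nearly the same region in both tables (scaffold862, 8742 to 9414 at 70% RWC). The levels were 0.40 at 70% RWC and 0.18 in the hydrated leaf. Over its 10% RWC region it was 0.47 at 10% RWC and 0.21 in the hydrated leaf. Another gene with this term, Bhs10817_003V1.1, has no description and had 0.71 at 70% RWC and 0.33 in the hydrated leaf. The NADPH-dependent thioredoxin reductase gene Bhs719_006V1.1, with the GO term chlorophyll biosynthetic process, had 0.38 at 70% RWC and 0.19 in the hydrated leaf. A shorter region inside that one had 0.14 at 10% RWC and 0.03 in the hydrated leaf. Transketolase, an enzyme of the Calvin cycle, had 0.59 at 70% RWC and 0.24 in the hydrated leaf upstream of Bhs3495_009V1.1. The NADP-dependent glyceraldehyde-3-phosphate dehydrogenase of that cycle had 0.26 at 70% RWC and 0.11 in the hydrated leaf in the body of Bhs3223_009V1.1. Peroxiredoxin Q, which removes peroxides, had 0.55 at 70% RWC and 0.27 in the hydrated leaf in the body of Bhs4995_007V1.1. Glutathione peroxidase had 0.23 at 10% RWC and 0.08 in the hydrated leaf in the body of Bhs4_048V1.1. These enzymes were chosen for their roles with their values in view, transketolase included. The counts of this group depend on that choice. Bhs7_147V1.1, a glucose-6-phosphate epimerase, was left among the described members without a role, with 0.25 at 10% RWC and 0.58 in the hydrated leaf. Bhs10817_003V1.1, which has no description, was placed here for its GO term.

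The remaining members joined by a GO term and have either a description not assigned to a role above (12 genes) or no description (27 genes). Of the 12 described genes, 8 stood in the 70% RWC table and all 8 were higher there, against 70.6% of all listed genes. At 10% RWC 6 of 9 were higher, near the 55.8% of all listed genes, and 3 were lower. The widest gain among them lay upstream of Bhs152_054V1.1, described as a kinesin, where the level was 0.50 at 70% RWC and 0.14 in the hydrated leaf. A region within it had 0.30 at 10% RWC and 0.06 in the hydrated leaf. Upstream of the stearoyl-CoA desaturase gene Bhs152_014V1.1 it was 0.38 at 70% RWC and 0.18 in the hydrated leaf. Over its 10% RWC region it was 0.43 at 10% RWC and 0.21 in the hydrated leaf. Downstream of the carrier gene Bhs24_042V1.1 it was 0.38 at 70% RWC and 0.18 in the hydrated leaf. Over its 10% RWC region it was 0.42 at 10% RWC and 0.19 in the hydrated leaf. Upstream of Bhs7_147V1.1, a glucose-6-phosphate epimerase, it was 0.25 at 10% RWC and 0.58 in the hydrated leaf. Bhs2646_003V1.1, an enzyme set of vitamin K synthesis, had 0.23 at 70% RWC and 0.10 in the hydrated leaf in its body. Its 10% RWC region had 0.28 at 10% RWC and 0.13 in the hydrated leaf. Bhs660_003V1.1, described as a subunit of mitochondrial cytochrome c oxidase, had 0.01 in the hydrated leaf in both tables, 0.16 at 70% RWC and 0.13 at 10% RWC.

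Among members without a description, outside the regulators above, 13 of 16 were higher at 70% RWC, by 0.11 to 0.48, and 3 were lower. At 10% RWC 10 of 16 were higher, by 0.10 to 0.52, and 6 were lower. The share over all listed genes was 70.6% in the 70% RWC table and 55.8% in the 10% RWC table. Upstream of Bhs22_098V1.1, whose terms are plastid envelope and chloroplast thylakoid, lay the widest gain of a member at 10% RWC (scaffold22, 902881 to 903185). The level was 0.67 at 10% RWC and 0.15 in the hydrated leaf, and in a region around it 0.72 at 70% RWC and 0.24 in the hydrated leaf. Upstream of Bhs13_005V1.1, whose terms include hexose phosphate transport, the level was 0.13 at 70% RWC and 0.57 in the hydrated leaf. An 818 bp region around that stretch had 0.10 at 10% RWC and 0.36 in the hydrated leaf. Upstream of Bhs905_001V1.1 it was 0.59 at 10% RWC and 0.11 in the hydrated leaf. Downstream of Bhs1834_019V1.1 it was 0.71 at 10% RWC and 0.34 in the hydrated leaf. Both of these stretches are also listed for a neighbouring gene, an FLS2-like receptor kinase gene and an E2F factor gene. Bhs2182_012V1.1 lies 9.84 kb from the oxygen-evolving enhancer gene Bhs2182_010V1.1, the closest pair of members, and had 0.59 at 70% RWC and 0.25 in the hydrated leaf in its body. Its overlapping 10% RWC region had 0.44 at 10% RWC and 0.21 in the hydrated leaf. The body of Bhs39_019V1.1 had 0.12 in the hydrated leaf in both tables, 0.26 at 70% RWC and 0.27 at 10% RWC. At the 3' side of Bhs4430_017V1.1 the level was 0.34 at 70% RWC and 0.16 in the hydrated leaf. Over its 10% RWC region it was 0.25 at 10% RWC and 0.11 in the hydrated leaf.

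By gene part, the highest share of members with a higher level was in gene bodies at 70% RWC. Of 23 members with a body region there, 22 had a higher level (95.7%, 78.1 to 99.9), against 71% of all listed gene bodies. Chlorophyllide a oxygenase was the exception. Upstream, 9 of 15 members were higher, against 71.3% of all listed genes, and downstream 13 of 17, against 69.3%. At 10% RWC 18 of 23 body regions were higher (78.3%, 56.3 to 92.5), against 61.5% of all listed gene bodies. Upstream 7 of 14 were higher, against 50.1%, and downstream 8 of 10, against 52.3%. Members were spread over the parts much as all listed genes were, with body regions for 41.8% of members at 70% RWC and 48.9% at 10% RWC, against 44.3% and 44.2% of all listed genes. These splits were looked at together with the values, and whether members differ from other listed genes was not tested.

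**Figure D3:**
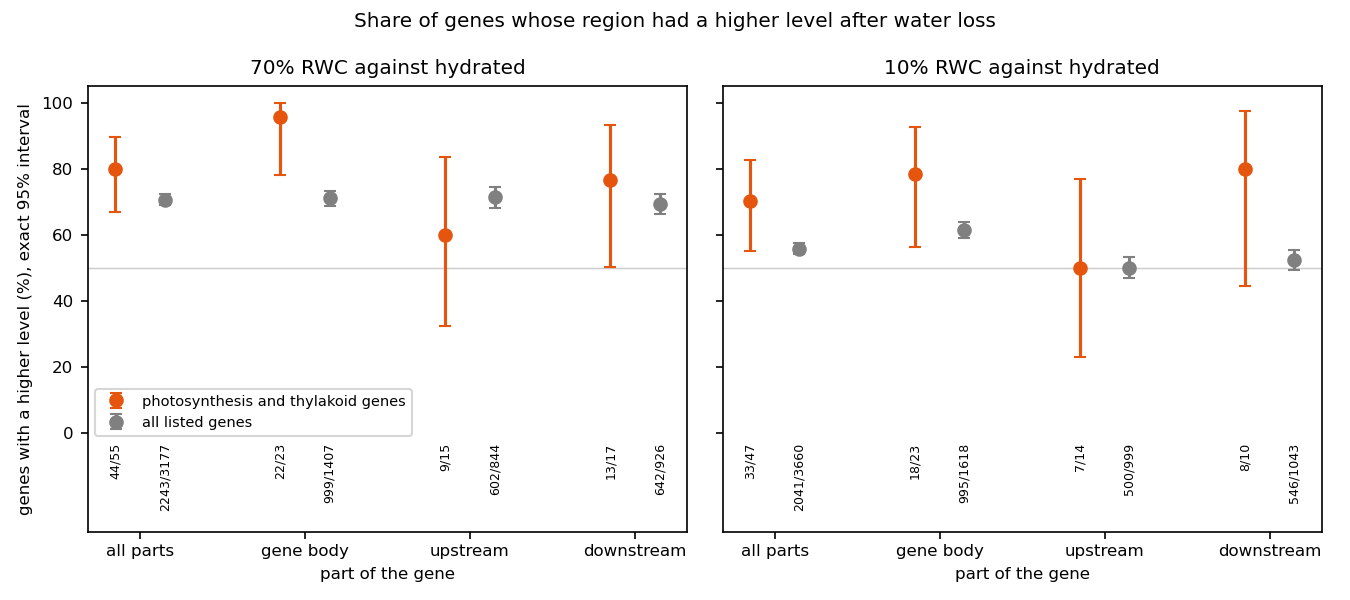
Share of genes with a higher level after water loss (%, vertical axis) by part of the gene, at 70% RWC (left) and 10% RWC (right), for members (orange) and all listed genes (grey); points are shares, bars exact 95% binomial intervals, and the numbers below are genes higher over genes listed. The member share is 22 of 23 in gene bodies at 70% RWC, and the upstream share is 7 of 14 at 10% RWC.

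Body regions did not always lie wholly within the gene. At 70% RWC 15 of 23 did and 8 reached past a gene end, and at 10% RWC 18 of 23 did and 5 reached past it. Flank regions lay a median of 620 bp from the gene at 70% RWC (largest 1829 bp) and 923 bp at 10% RWC (largest 1831 bp). Some flank regions reached into the gene, 3 of 32 at 70% RWC and 1 of 24 at 10% RWC. The member regions were of ordinary length, with medians of 323 bp at 70% RWC and 305 bp at 10% RWC, against 340 and 337 bp over all listed genes. A stretch was listed for more than 1 gene in 20 of 55 cases at 70% RWC and 18 of 47 at 10% RWC. Among them are members named above without that remark. The stretches of Bhs24_042V1.1, Bhs152_014V1.1 and Bhs40_046V1.1 lie in the body of a neighbouring gene. Those of Bhs7785_006V1.1, Bhs238_025V1.1, Bhs4169_002V1.1, Bhs862_002V1.1, Bhs51_011V1.1, Bhs152_054V1.1, Bhs39_019V1.1, Bhs120_044V1.1 and Bhs3223_009V1.1 are also listed for a neighbour. Members sharing a scaffold were few, 15 genes on 7 of 69 scaffolds, and no stretch was listed for 2 members.

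At 70% RWC 28 of 55 members (50.9%) differed by at least 0.2, against 57.6% of all listed genes, and at 10% RWC 22 of 47 did (46.8%), against 52.4%. Among these, 20 of 28 were higher at 70% RWC, against 71.7% of such listed genes, and 11 of 22 at 10% RWC, against 45.5%. Both shares are near those of all listed genes. At 10% RWC the median gain of members was 0.15 and the median loss -0.275, and all listed genes had the same order, with 0.18 and -0.24. Grouped by the higher of the 2 levels, 10 of 12 members below 0.2 and 10 of 11 between 0.2 and 0.3 were gains at 10% RWC, against 72.2% and 66% of all listed genes of that kind. Among the 10 members at 0.5 or above 4 were gains, against 38.2% of all listed genes of that kind. At 70% RWC 10 of 14 members at 0.5 or above were gains, against 67.8%.

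For 20 of the 25 members in both tables the regions overlapped, and for 5 they lay apart. Only the PsbY region had identical boundaries. The hydrated library is the same in both tables, so its level in overlapping regions shows how far a level moves with the boundaries alone. Over the 20 members the hydrated levels differed by a median of 0.04 and at most by 0.21, which was upstream of Bhs13_005V1.1. They were equal for 4 members and within 0.05 for 12. Over all listed genes, 113 of the 114 regions with identical boundaries had the same hydrated level. A difference between 70% and 10% RWC of the size of that spread, as in Bhs1499_011V1.1 (0.22 and 0.24) or Bhs862_002V1.1 (0.40 and 0.47), cannot be told from a change of boundaries. Members listed at 10% RWC alone were 12 higher and 10 lower, and members listed at 70% RWC alone 23 higher and 7 lower, both near the 55.8% and 70.6% higher among all listed genes. Of the 25 members in both tables, 21 were higher and 4 lower in each table (84%, 63.9 to 95.5). The shares of 55.8% and 70.6% are over all genes of each table, so they are not a matched background for genes in both. Over the 1262 genes in both tables the matching share was not computed. The comparisons have the hydrated library in common, and no difference was tested.

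**Figure D4:**
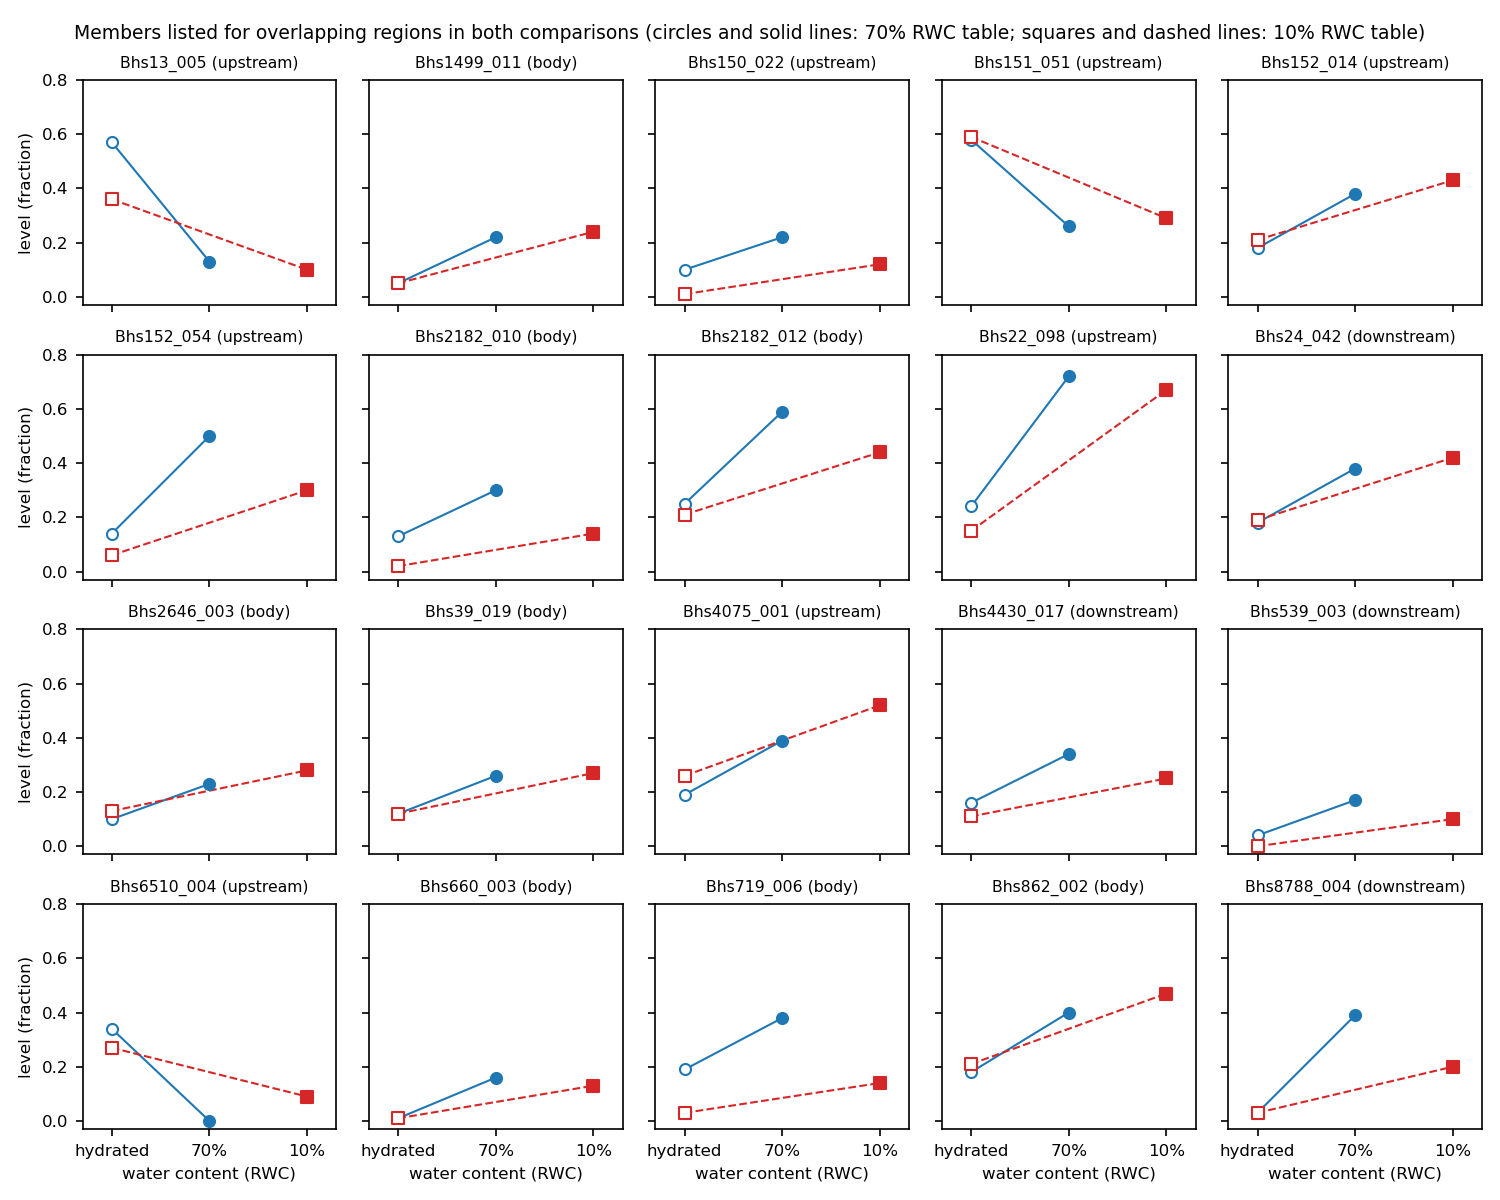
Methylation level (fraction, vertical axis) by water content (hydrated, 70% and 10% RWC, horizontal axis) for the 20 members whose regions overlap between the tables, 1 panel per gene with the gene part at 70% RWC. Circles and solid lines are the 70% RWC table, squares and dashed lines the 10% RWC table, and open symbols are the same hydrated library over each table's own region; the open symbols lie up to 0.21 apart.

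Genes outside the members were drawn from the descriptions by keyword as lists of pigment synthesis, light signalling, carbon fixation and other chloroplast enzymes. The light signalling proteins and phosphoenolpyruvate carboxylase do not work in the chloroplast. Of 18 pigment synthesis genes, 11 carry the description zeta-carotene desaturase, an enzyme of carotenoid synthesis, so the description does not single out 1 gene. In this list 7 of 10 genes were higher at 70% RWC and 5 of 11 at 10% RWC, against 70.6% and 55.8% of all listed genes. The widest differences at 70% RWC were in the bodies of Bhs4107_002V1.1 (0.43 at 70% RWC, 0.09 hydrated) and Bhs211_017V1.1 (0.21 and 0.47) and upstream of Bhs21_009V1.1 (0.19 and 0.41). At 10% RWC they were upstream of Bhs229_028V1.1 (0.18 at 10% RWC, 0.62 hydrated) and of the protoporphyrinogen oxidase gene Bhs119_056V1.1 (0.01 and 0.25), and in the body of Bhs1867_003V1.1 (0.01 and 0.24). Protoporphyrinogen oxidase serves both chlorophyll and heme synthesis.

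Light signalling gave 3 of 6 higher genes at 70% RWC and 1 of 3 at 10% RWC. The shares over all listed genes were 70.6% and 55.8%. Of the 9 light signalling genes, 8 are described as phytochrome-interacting factor 3, a repressor of light responses. At 70% RWC the widest differences were upstream of Bhs263_021V1.1 (0.14 at 70% RWC, 0.58 hydrated), downstream of Bhs7155_001V1.1 (0.53 and 0.25) and in the body of Bhs208_040V1.1 (0.44 and 0.21). At 10% RWC they were upstream of Bhs1861_014V1.1 (0.29 at 10% RWC, 0.59 hydrated), downstream of Bhs1930_002V1.1 (0.26 and 0.10) and in the body of Bhs2494_010V1.1 (0.09 and 0.18). In carbon fixation, 1 of 3 genes was higher at 70% RWC and both listed genes at 10% RWC, beside the same 70.6% and 55.8%. The phosphoenolpyruvate carboxylase gene Bhs6567_001V1.1 had 0.41 at 70% RWC and 0.18 in the hydrated leaf in its body, and 0.41 at 10% RWC and 0.20 in the hydrated leaf. Sedoheptulose-bisphosphatase, an enzyme of the Calvin cycle, had 0.19 at 70% RWC and 0.41 in the hydrated leaf in the body of Bhs109_073V1.1. The genes of a methyltransferase that acts on Rubisco had 0.26 at 70% RWC and 0.52 in the hydrated leaf (Bhs3883_003V1.1) and 0.58 at 10% RWC and 0.27 in the hydrated leaf (Bhs129_018V1.1), both downstream. Of the other chloroplast genes, 0 of 2 were higher at 70% RWC and 1 of 1 at 10% RWC, beside the same shares. Among them, the ferredoxin gene Bhs222_026V1.1, the electron acceptor of photosystem I, was listed at 0 at 70% RWC and at 0.50 in the hydrated leaf upstream. The ferredoxin-dependent sulfite reductase gene Bhs7846_004V1.1 had 0.54 at 10% RWC and 0.27 in the hydrated leaf upstream. The photorespiration keywords matched no listed gene.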

How the data were processed

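The files start from the authors' selected regions. Per the labels' protocols, leaf DNA was sheared by sonication, joined to methylated adaptors, bisulfite-converted and amplified, with size selection before and after. Aligner, region caller, contexts, conversion rate, depth and build were not given in the sources used here. For each region and library the deposited level is a fraction from 0 to 1, per the file headers; the other deposited numbers are positions and lengths in bp. No gene's stated direction or region length went against its levels or coordinates. The gene end was recomputed from start and length, because the deposited end differed from that for some genes. Blank lines (57411 in the 70% RWC table, 54694 in the 10% RWC table) were dropped.

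The members and lists were chosen with earlier results of these data known. Counts are per gene. Shares carry exact (Clopper-Pearson) 95% binomial intervals that cover counting only, and medians stand beside those of all listed genes. With 1 library per condition no test was run. Share and median intervals were tested on simulated data. Roles were assigned by hand from descriptions and GO terms after the values had been seen. Named are all members by description, those by GO term in both tables and the 5 widest differences by GO term per table, and per other list the 3 widest differences. Other named members were chosen after their values were seen. Alternatives were membership by description or GO term alone, a difference of at least 0.2, distinct regions, regions of 1 gene, bodies alone and log2 ratios with 0.01 added. Membership by the KEGG pathway column was added after seeing the data. The tools were scipy 1.17.1, numpy 2.4.6, pandas 2.3.3 and matplotlib 3.10.9 under Python 3.11.15.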

Additional observations from a re-analysis of the deposited data

How the results depend on the processing

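The share of members with a higher level stayed above 50% at 70% RWC under every alternative run, and at 10% RWC under every one but a minimum difference. With a difference of at least 0.2, 28 members remained at 70% RWC, with a median difference of 0.225. At 10% RWC 22 remained, with 50% higher, against 45.5% of all listed genes with such a difference, and a median difference of 0. By description alone there were 11 members at 70% RWC (90.9% higher, 58.7 to 99.8), against 70.6% of all listed genes. At 10% RWC there were 7 (85.7% higher, 42.1 to 99.6), against 55.8%. Both intervals contain the share over all listed genes. By the KEGG pathway column alone, an alternative chosen after seeing the data, there were 9 genes at 70% RWC, 8 of them members and 8 higher. At 10% RWC there were 7 (85.7% higher). The shares over all listed genes were again 70.6% and 55.8%. In gene bodies alone the share at 70% RWC was 95.7%, against 71% of all listed gene bodies. GO terms alone and regions of 1 gene moved no share or median beyond its main interval or changed its sign. The median log2 ratios kept the sign of the main medians, and their size is on another scale. Counting distinct regions could change nothing, since each member has its own region. The count of members with the same direction in both tables is given above as a description only, since both share the hydrated library. No paired analysis was possible because each condition has 1 library. Unknown depth limits every single level, above all those listed at 0.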
